A study of Mus musculus with 6 samples.

Results

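Complex III, cytochrome c, complex IV and ATP synthase form the last stretch of oxidative phosphorylation. The genes described here are nuclear genes that encode them. They were taken as the rows of the deposited count table whose gene symbol begins with Uqcr, with Cox4 to Cox8 or with Atp5, together with Cyc1 and Cycs, leaving out pseudogene names marked -ps. This gave 44 genes of the 49315 in the table: 9 of complex III, 1 for cytochrome c, 18 of complex IV and 16 of ATP synthase. A low-count filter left 42 of them among the 14370 genes tested. The filter removed Cox7b2 and Cox8c, isoforms known from testis, which had at most 8 reads in any library. The 6 rows left out for a -ps name had at most 42 reads in any library.

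RNA came from the mid-ventricular heart of adult mice, with 3 mice labelled TET2KO, which carry a knockout of Tet2 said to be endothelial-specific, and 3 labelled WT. For 28 days all 6 mice had carried a pump under the skin that delivered Angiotensin II, a peptide that raises blood pressure and drives cardiac hypertrophy, at a daily dose of 1.0 mg/kg. Mice without Angiotensin II are not analysed here, so every comparison is of genotype under this infusion. The driver of the endothelial deletion, the deleted exons and any floxed allele carried by the WT mice are not given in the labels. An endothelial-specific deletion is meant to leave Tet2 in place in other heart cells, and whether it did was not tested. Each library is bulk tissue, in which fewer cells of a type and less RNA per cell cannot be told apart.

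Library totals ran from 26810691 to 30418909 reads in the libraries labelled TET2KO and from 22124844 to 26569073 in those labelled WT. Tet2 went against the labels: its level was 14.6, 8.01 and 10.4 CPM (counts scaled to a fixed library size) in libraries labelled TET2KO, against 4.27, 4.33 and 3.08 CPM in those labelled WT, a log2 fold change of 1.49 ± 0.29 (SE, edgeR adjusted p = 0.0065); with a length and GC trend removed, as described further on, it was 0.27 ± 0.17 (edgeR adjusted p = 0.21). The groups are therefore called by their labels throughout, and each direction below is between libraries so labelled. TET2KO replicate 2 stood apart from its group: across genes, its log2 CPM correlated at r = 0.928 and 0.959 with TET2KO replicates 1 and 3 and at r = 0.955 to 0.968 with the 3 WT libraries, while TET2KO replicates 1 and 3 correlated at r = 0.986 with each other. It was also the TET2KO library nearest to the WT mean for 39 of the 42 tested subunit genes. Cardiomyocyte markers were abundant in every library, at a summed 58732 to 63842 CPM in libraries labelled TET2KO and 85116 to 105017 CPM in those labelled WT, while the fast skeletal muscle myosins Myh1 and Myh2 were at most at 0.05 CPM in libraries labelled TET2KO and at 0 in all 3 labelled WT.

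Complex III takes electrons from ubiquinol and hands them to cytochrome c, a small soluble carrier, and complex IV passes them on to oxygen. Both complexes III and IV move protons across the inner mitochondrial membrane, and ATP synthase lets the protons flow back to drive the making of ATP. The mitochondrial genome encodes the catalytic core of complex IV, cytochrome b of complex III and the proton channel of ATP synthase, and the nucleus encodes the remaining subunits. Heart muscle is among the tissues richest in these complexes, and several complex IV subunits exist there as a muscle isoform beside a ubiquitous one.

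Nearly the whole machinery was lower in libraries labelled TET2KO. Of the 42 tested genes, 37 fell and 0 rose, in edgeR's quasi-likelihood test at an adjusted p under 0.05; of all 14370 genes tested, 29.4% were called lower and 33.4% higher. The median log2 fold change of the 42 genes was −1.41, against 0.05 for all tested genes. In 41 of the 42 genes every library labelled TET2KO had a lower CPM than every library labelled WT, an order seen for 35.5% of all tested genes. Atp5a1 was the exception, with every TET2KO library above every WT library, an order seen for 38% of all tested genes. Summed over all 44 genes, transcripts made up 29690, 51447 and 38944 CPM in TET2KO replicates 1, 2 and 3, against 95768, 81882 and 103078 CPM in WT replicates 1, 2 and 3. The highest TET2KO library thus lay well below the lowest WT library. Without TET2KO replicate 2, 38 genes were called lower and 0 higher. These values are as counted; once the trend of fold change with length and GC was taken out, 27 genes were lower and 2 higher, as given further on.

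**Figure D1:**
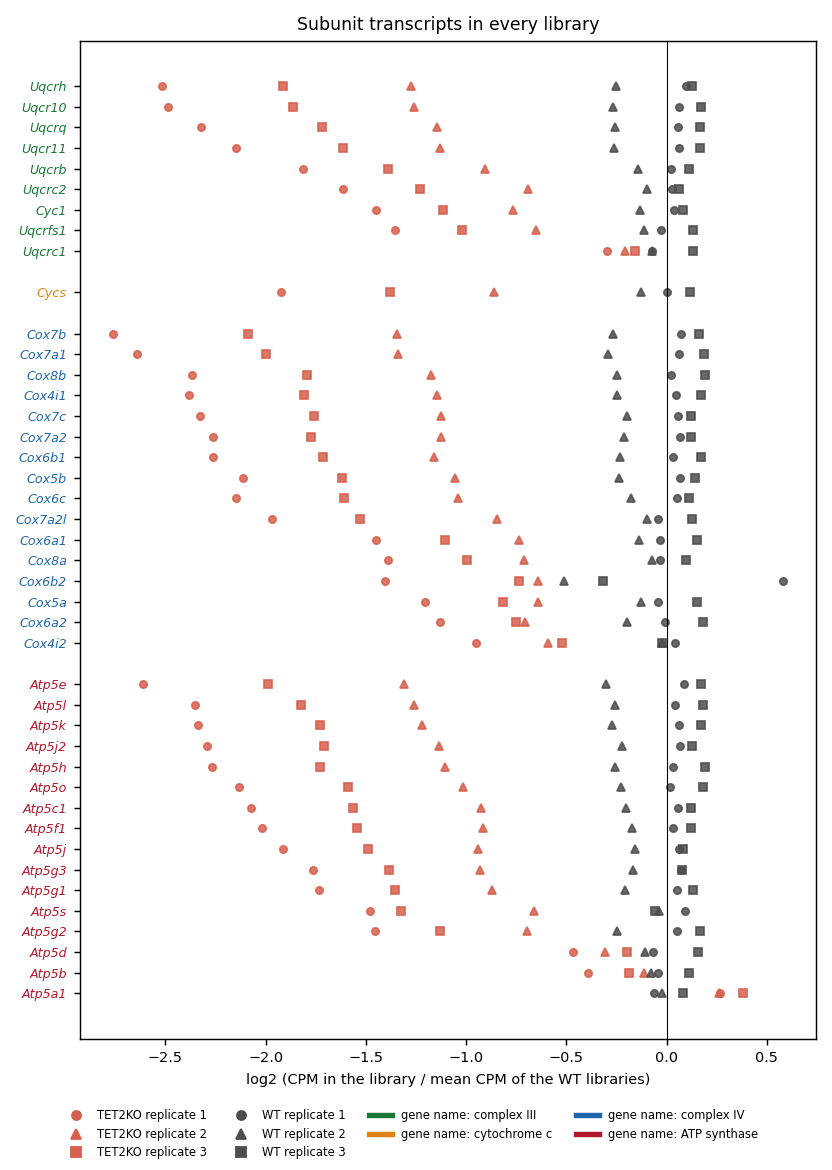
Each row is a tested subunit gene and each point a library, placed at the log2 of its CPM over the mean CPM of the 3 WT libraries (0 on the axis); libraries labelled TET2KO are red and WT grey. TET2KO replicate 2 (triangles) lies nearest to the WT libraries for 39 of 42 genes, and only Atp5a1 has all its TET2KO points to the right of its WT points.

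As counted, the 3 complexes and cytochrome c were lower by different amounts. Complex III summed to 5113, 8913 and 6696 CPM in the libraries labelled TET2KO, against 16668, 14417 and 17735 CPM in those labelled WT, a ratio of means of 0.424. Complex IV summed to 7470, 15605 and 10736 CPM in the libraries labelled TET2KO, against 34249, 28457 and 37180 CPM in those labelled WT, a ratio of 0.338. ATP synthase summed to 16555, 25777 and 20710 CPM in the libraries labelled TET2KO, against 42758, 37097 and 45898 CPM in those labelled WT, a ratio of 0.501. Groups did not overlap for any of these sums. The ratio for ATP synthase included an abundant catalytic head: without the alpha and beta subunits its other 14 genes summed to 8378, 16694 and 11560 CPM in the libraries labelled TET2KO, against 34175, 28570 and 36355 CPM in those labelled WT, a ratio of 0.37. By gene, 8 of 9 tested complex III genes, 15 of 16 of complex IV and 13 of 16 of ATP synthase fell. Of all tested genes, 29.4% were called lower. The median log2 fold changes of the 3 complexes were −1.32, −1.53 and −1.41. The differences between complexes were not tested. Without TET2KO replicate 2 those medians were −1.57, −1.83 and −1.70. With the length and GC trend removed, as given further on, they were −0.39, −0.37 and −0.41.

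**Figure D2:**
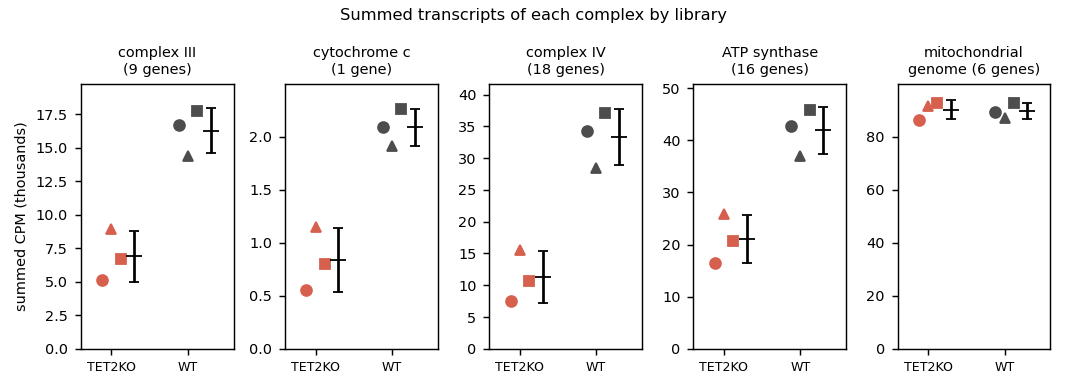
Summed CPM, in units of 1000 CPM on axes that start at 0, of the nuclear genes of each complex and, in the panel on the right, of the 6 subunits encoded by the mitochondrial genome; points are libraries (circle, triangle and square for replicates 1, 2 and 3), with the mean and SD beside them. The nuclear sums of libraries labelled TET2KO lie below all WT sums, and the mitochondrially encoded sums overlap.

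Within complex III, the 5 small subunits that surround the catalytic core all fell and, as counted, had the largest decreases (log2 fold change −1.82 to −1.32). This order rests on the values as counted: with the length and GC trend removed they ran from −0.95 for Uqcrq to −0.10 for Uqcrb, which was not called, and Cyc1, at −0.70, lay among them. Uqcrh, the hinge protein that helps cytochrome c dock, stood at 401, 947 and 609 CPM in libraries labelled TET2KO, against 2452, 1925 and 2511 CPM in those labelled WT (−1.82 ± 0.33 SE, edgeR adjusted p = 0.0065). Uqcr10 had 241, 566 and 372 CPM in libraries labelled TET2KO, against 1415, 1124 and 1524 CPM in those labelled WT (−1.78 ± 0.33, edgeR adjusted p = 0.0065). Uqcr11, the complex III gene with the highest mean TPM (transcripts on a scale that also allows for gene length), had 1377, 2302 and 1783 TPM in libraries labelled TET2KO, against 3659, 3241 and 3691 TPM in those labelled WT (−1.57 ± 0.29 from the counts, edgeR adjusted p = 0.0065). In all 3 genes replicate 2 was the highest of the TET2KO libraries and the lowest of the WT libraries.

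The redox-active subunits of complex III had smaller fold changes as counted, a difference that was not tested. Cyc1, cytochrome c1, which passes the electron to cytochrome c, had 746, 1196 and 940 CPM in libraries labelled TET2KO, against 2094, 1861 and 2157 CPM in those labelled WT (−1.08 ± 0.23, edgeR adjusted p = 0.0071). Uqcrfs1, the Rieske iron-sulphur protein, had 714, 1164 and 901 CPM in libraries labelled TET2KO, against 1789, 1687 and 2002 CPM in those labelled WT (−0.98 ± 0.24, edgeR adjusted p = 0.01), and was no longer called without TET2KO replicate 3 or with the length and GC trend removed (−0.08, edgeR adjusted p = 0.55). The core proteins split: Uqcrc2 fell (−1.13 ± 0.27, edgeR adjusted p = 0.0096), while Uqcrc1 had 1043, 1111 and 1151 CPM in libraries labelled TET2KO, against 1221, 1219 and 1408 CPM in those labelled WT (−0.22 ± 0.19, edgeR adjusted p = 0.33). The Uqcrc1 groups did not overlap, though the test did not call the difference. With the length and GC trend removed Uqcrc1 was not called either (−0.09, edgeR adjusted p = 0.49). Only with the trend on merged exon length was it called lower (−1.15, edgeR adjusted p = 0.0062). Merged exon length is the union of a gene's exons, an alternative added after the data were seen. Cycs, the only somatic cytochrome c gene, had 552, 1151 and 803 CPM in libraries labelled TET2KO, against 2092, 1911 and 2265 CPM in those labelled WT (−1.32 ± 0.29, edgeR adjusted p = 0.0075).

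As counted, complex IV held the gene with the largest decrease of all, Cox7b, an X-linked structural subunit. It had 506, 1352 and 807 CPM in libraries labelled TET2KO, against 3597, 2844 and 3840 CPM in those labelled WT (−1.95 ± 0.37, edgeR adjusted p = 0.0065). All 7 subunits that lack a muscle isoform pair here fell: beside Cox7b these were Cox4i1 (−1.69 ± 0.34), the largest nuclear subunit, Cox7c (−1.66 ± 0.32), Cox6b1 (−1.64 ± 0.31), Cox5b (−1.53 ± 0.30), Cox6c (−1.53 ± 0.30) and Cox5a (−0.87 ± 0.22). Cox5a was no longer called without WT replicate 3 or without TET2KO replicate 3. Cox7a2l, whose product joins complexes III and IV into supercomplexes, fell too (−1.37 ± 0.30, edgeR adjusted p = 0.0073). The remaining isoform genes had few reads. Cox4i2, an isoform of subunit 4 known from lung and from oxygen-sensing cells, had 7.82, 10.0 and 10.5 CPM in libraries labelled TET2KO, against 15.6, 14.9 and 14.9 CPM in those labelled WT (−0.68 ± 0.19, edgeR adjusted p = 0.016), a call lost when any of the 3 WT libraries was left out. Cox6b2, known from testis, averaged 1.54 ± 0.406 CPM in libraries labelled TET2KO and 2.86 ± 1.23 CPM in those labelled WT (SD, n = 3 each), and was not called (edgeR adjusted p = 0.07).

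In the rotary enzyme ATP synthase, neither gene of the catalytic head, built of alpha and beta subunits, was called as counted. Atp5a1, the alpha subunit, had 3834, 3813 and 4145 CPM in libraries labelled TET2KO, against 3044, 3129 and 3374 CPM in those labelled WT (0.30 ± 0.19, edgeR adjusted p = 0.2). Atp5b, the catalytic beta subunit, had 4343, 5271 and 5005 CPM in libraries labelled TET2KO, against 5539, 5398 and 6168 CPM in those labelled WT (−0.23 ± 0.21, edgeR adjusted p = 0.35). The Atp5b groups did not overlap. With the length and GC trend removed Atp5b had the other sign and was not called (0.17, edgeR adjusted p = 0.21). With the trend on merged exon length, the alternative added after the data were seen, it was called lower (−0.52, edgeR adjusted p = 0.039). The head summed to 8177, 9084 and 9150 CPM in libraries labelled TET2KO, against 8583, 8526 and 9543 CPM in those labelled WT, and the groups overlapped. Atp5d, the delta subunit of the central stalk below the head, was not called either (562 ± 52.0 CPM in libraries labelled TET2KO and 701 ± 71.2 CPM in those labelled WT, SD, n = 3 each; edgeR adjusted p = 0.17).

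Apart from these 3 genes, all of ATP synthase fell as counted. In the central stalk, Atp5e, the epsilon subunit, had 284, 700 and 437 CPM in libraries labelled TET2KO, against 1841, 1410 and 1955 CPM in those labelled WT (−1.87 ± 0.35, edgeR adjusted p = 0.0065), and the gamma subunit Atp5c1, the rotor shaft, also fell (−1.45 ± 0.31). The 4 tested genes of the peripheral stalk, which holds the head still, fell by similar amounts: Atp5h (−1.62 ± 0.32), Atp5o (−1.51 ± 0.31), Atp5f1 (−1.42 ± 0.31) and Atp5j (−1.39 ± 0.28). The 3 genes for small membrane subunits that help dimers form, Atp5l, Atp5k and Atp5j2, fell by log2 fold changes of −1.74 to −1.64. Among them Atp5l had 380, 812 and 550 CPM in libraries labelled TET2KO, against 2004, 1627 and 2202 CPM in those labelled WT (−1.74 ± 0.31, edgeR adjusted p = 0.0065). Atp5s, coupling factor B, fell by a log2 fold change of −1.11 ± 0.23.

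Subunit c, which forms the rotating ring in the membrane, is encoded by Atp5g1, Atp5g2 and Atp5g3, whose mature products are the same protein. All 3 fell as counted. Atp5g3 had the highest mean TPM of the ATP synthase genes, at 1627, 2396 and 1896 TPM in libraries labelled TET2KO, against 3338, 3132 and 3143 TPM in those labelled WT (−1.32 ± 0.26 from the counts, edgeR adjusted p = 0.0065), but was not called with the length and GC trend removed (−0.09, edgeR adjusted p = 0.49). Atp5g1 changed by −1.28 ± 0.27 and Atp5g2 by −1.06 ± 0.24. The mix of the 3 genes stayed close: Atp5g2 took 6.39, 6.03 and 6.17% of their summed counts in libraries labelled TET2KO and 5.22, 5.06 and 5.49% in those labelled WT, while Atp5g1 took 44.5 to 45.2% in libraries labelled TET2KO and 44.0 to 45.3% in those labelled WT. The share of Atp5g2 was thus the higher in every TET2KO library, and that of Atp5g1 overlapped.

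Scaling bears on the genes of the head and on Uqcrc1. With total library size in place of TMM factors (the trimmed mean scaling of edgeR), the median of all tested genes moved to 0.47, and on the authors' TPM it was 0.41 on the log2(TPM + 1) scale. Atp5a1 had 3307, 2715 and 3198 TPM in libraries labelled TET2KO, against 1507, 1715 and 1568 TPM in those labelled WT, and was then called higher (0.94, limma adjusted p = 0.0059 on log2(TPM + 1); 0.74, edgeR adjusted p = 0.0079 with total library size). Uqcrc1 was called higher on TPM (0.42, limma adjusted p = 0.024), the reverse of its sign with TMM. The signs of Atp5b and Atp5d turned as well, to 0.41 and 0.32 on log2(TPM + 1), with no call (limma adjusted p = 0.07 and 0.068). With total library size 34 of the 42 genes were still called lower, and Cox5a, Cox6a2 and Cox4i2 were not (edgeR adjusted p = 0.064, 0.069 and 0.28). On log2(TPM + 1) 31 were still called lower, and Cyc1, Uqcrfs1 and Cox8a were also not called (limma adjusted p = 0.058, 0.11 and 0.0502).

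Most of these genes have short transcripts, and in this series fold change followed transcript length over all genes. Across the 14341 tested genes with a length, Spearman's rho between log2 fold change and the length of the longest transcript was 0.61, and across the 42 subunit genes it was 0.48; both are descriptions across genes, which share the same 6 libraries. Of all tested genes with transcripts of over 500 and up to 1000 nt, 74.5% were called lower, and 20 of the 21 subunit genes in that class were. In the class up to 500 nt the values were 66.8% and 6 of 6. For 1000 to 2000 nt they were 54.8% and 9 of 12. Of the 5 uncalled genes, Atp5a1 has a longest transcript of 2674 nt, Atp5b of 1916 nt, Uqcrc1 of 1653 nt, Atp5d of 1410 nt and Cox6b2 of 585 nt; the median of the 42 genes was 746 nt. Atp5g1 and Cycs ran against the trend, with longest transcripts of 4715 and 3123 nt and log2 fold changes of −1.28 and −1.32. Over all genes above 4000 nt, 7.49% were called lower and the median log2 fold change was 1.00, and from 2000 to 4000 nt these values were 24.7% and 0.06. What the link with length stems from was not tested.

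**Figure D3:**
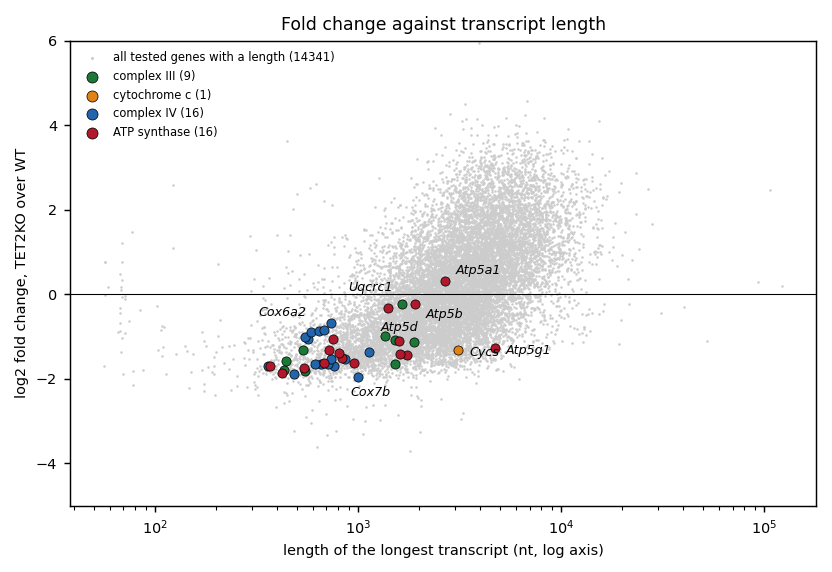
Log2 fold change of TET2KO over WT against the length of the longest transcript in nt (log axis) for all 14341 tested genes with a length (grey) and the 42 subunit genes (coloured by complex); 2 genes lie outside the plotted range. Most subunit genes lie at the short, lower end of the cloud, and Cycs and Atp5g1 lie below the medians of their length classes.

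With a smooth trend on transcript length and GC content taken out of each library, the decreases shrank and fewer genes passed. The median log2 fold change of the 42 genes became −0.39, against −0.03 for all tested genes; 27 were called lower and 2 higher, where 24.3% of all tested genes were called lower and 21.9% higher. By complex, 6 of 9 genes of complex III, 9 of 16 of complex IV and 11 of 16 of ATP synthase were lower. Their medians were −0.39, −0.37 and −0.41, closer together than as counted. That closeness depended on the length used. With a length trend from the counts and TPM the medians were −0.50, −0.56 and −0.99. With merged exon length they were −0.61, −0.49 and −0.92, and in both cases ATP synthase lay apart. Cycs remained lower (−0.70 ± 0.14, edgeR adjusted p = 0.006), as did Cyc1 (−0.70 ± 0.13, edgeR adjusted p = 0.0047), Cox7b (−0.82 ± 0.15, edgeR adjusted p = 0.0048) and Atp5c1 (−0.89 ± 0.17, edgeR adjusted p = 0.0052). Atp5g1 had the largest decrease, −1.77 ± 0.28, taking its length as 4715 nt. With the trend on merged exon length, which is 4912 nt for Atp5g1, it was −1.33. Both lengths are long, so neither value shows what a shorter transcript would give. Cox5a (0.45 ± 0.13, edgeR adjusted p = 0.024) and Cox6a2 (0.42 ± 0.15, edgeR adjusted p = 0.041) were the 2 called higher, the reverse of their sign as counted. Both of these calls were lost when any WT library or TET2KO replicate 3 was left out, and with merged exon length, where Cox5a was −0.22 (edgeR adjusted p = 0.23) and Cox6a2 0.40 (edgeR adjusted p = 0.08). The 8 genes called lower as counted and not called with the trend removed were Atp5g3, Atp5s, Uqcrb, Uqcrfs1, Cox6c, Cox6a1, Cox8a and Cox4i2. The count of 27 depended on the libraries: leaving out WT replicate 3 gave 13, WT replicate 1 gave 15 and TET2KO replicate 3 gave 15, while leaving out TET2KO replicate 2 gave 28. The shares of all tested genes called in these reruns are not given here. Whether the shifts in count are particular to the subunit genes was not tested.

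**Figure D4:**
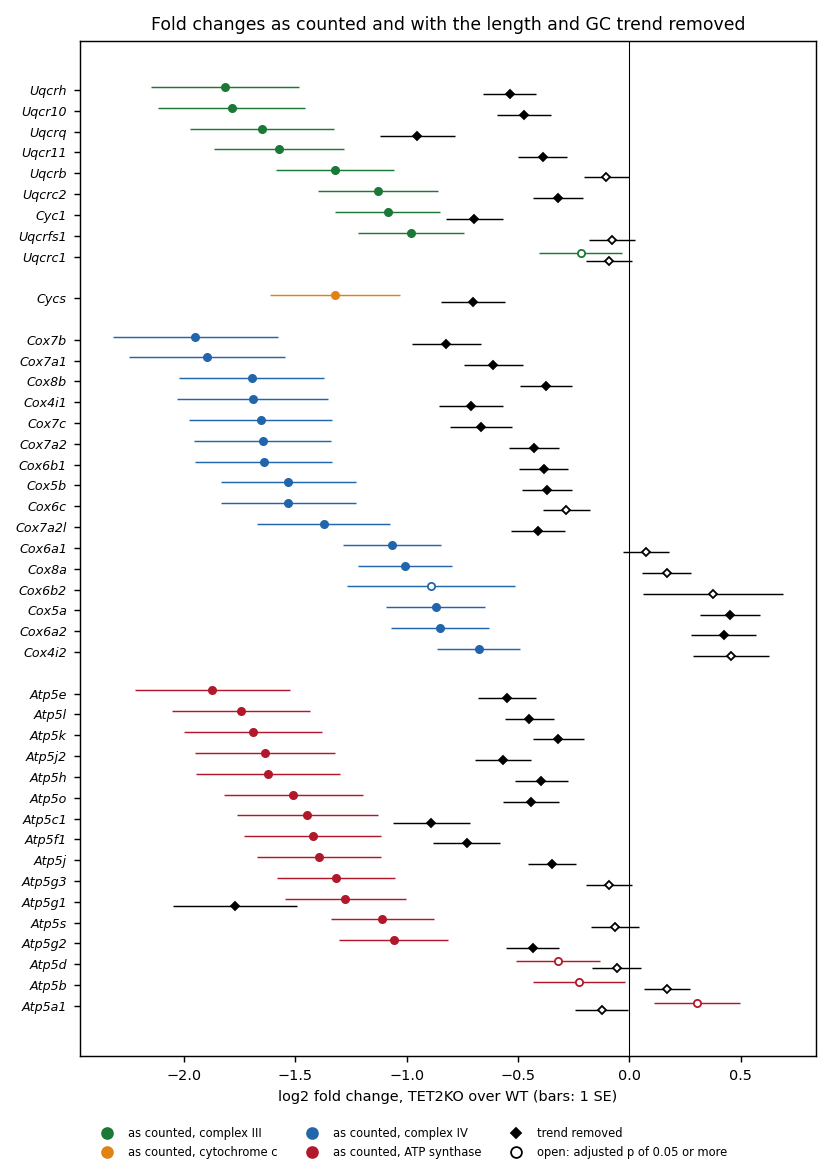
Log2 fold change of TET2KO over WT for each tested subunit gene, as counted (coloured circles) and with the length and GC trend removed (black diamonds), with bars of 1 SE; open symbols have an adjusted p of 0.05 or more. Every gene except Atp5g1 and Atp5a1 moves to the right when the trend is removed; Cox6a1, Cox8a, Cox5a, Cox6a2, Cox4i2, Cox6b2 and Atp5b cross 0 that way, and Atp5a1 crosses it to the left.

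Muscle and ubiquitous isoforms of complex IV were compared as ratios within each library, which no scaling between libraries can change. Subunits 6a, 7a and 8 each have an isoform known from heart and skeletal muscle, Cox6a2, Cox7a1 and Cox8b, beside Cox6a1, Cox7a2 and Cox8a. The stretches just before the start sites are printed for the pairs 7a and 8, the pairs in which the muscle isoform took the smaller share in libraries labelled TET2KO. They come from RefSeq (GRCm38.p6), read 5′ to 3′ on the gene's strand, from chr7:30183921-30184143 (plus) for Cox7a1, chr9:79759879-79760103 (minus) for Cox7a2, chr7:140900447-140900696 (minus) for Cox8b and chr19:7217617-7217866 (minus) for Cox8a. Bases that GENCODE places inside the gene were left out, so the stretches of Cox7a1 and Cox7a2 end 27 and 25 bases before the RefSeq start. Capitals mark letters of the motifs described further on.
Cox7a1: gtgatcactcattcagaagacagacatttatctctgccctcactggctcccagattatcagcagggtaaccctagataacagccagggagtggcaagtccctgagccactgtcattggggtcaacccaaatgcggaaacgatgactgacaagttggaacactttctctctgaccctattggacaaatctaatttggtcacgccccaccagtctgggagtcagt
Cox7a2: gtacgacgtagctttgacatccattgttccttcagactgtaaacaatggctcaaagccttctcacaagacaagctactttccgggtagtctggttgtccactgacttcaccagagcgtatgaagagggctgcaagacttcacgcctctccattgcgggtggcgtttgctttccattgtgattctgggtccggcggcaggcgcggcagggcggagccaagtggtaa
Cox8b: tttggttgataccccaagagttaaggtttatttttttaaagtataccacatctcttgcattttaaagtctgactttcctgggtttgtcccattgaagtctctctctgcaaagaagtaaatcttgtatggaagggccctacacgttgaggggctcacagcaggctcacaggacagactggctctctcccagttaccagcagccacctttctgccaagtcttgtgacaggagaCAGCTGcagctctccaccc
Cox8a: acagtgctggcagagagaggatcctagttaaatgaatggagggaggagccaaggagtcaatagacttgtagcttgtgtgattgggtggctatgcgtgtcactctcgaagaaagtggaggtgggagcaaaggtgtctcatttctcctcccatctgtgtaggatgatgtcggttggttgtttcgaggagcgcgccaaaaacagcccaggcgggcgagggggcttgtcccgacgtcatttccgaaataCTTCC

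As counted, every isoform gene of the 3 pairs fell, each with groups that did not overlap; with the length and GC trend removed Cox8b, Cox7a1 and Cox7a2 were still lower, while Cox6a1 (0.07) and Cox8a (0.17) changed sign without a call. Cox8b, the complex IV gene with the highest mean TPM, had 3122, 5901 and 4155 TPM in libraries labelled TET2KO, against 9374, 8633 and 9914 TPM in those labelled WT (−1.70 ± 0.33 from the counts, edgeR adjusted p = 0.0065). Its ubiquitous partner Cox8a had 480, 636 and 564 TPM in libraries labelled TET2KO, against 707, 762 and 726 TPM in those labelled WT (−1.01 ± 0.21, edgeR adjusted p = 0.0069). The muscle form had the larger fold change, and Cox8b over Cox8a was 6.50, 9.28 and 7.36 in libraries labelled TET2KO, against 13.3, 11.3 and 13.7 in those labelled WT, a difference in log2 ratio of −0.74. All 3 TET2KO ratios lay below all WT ratios.

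For subunit 7a the difference was smaller and of the same sign. Cox7a1, the muscle form, had 2523, 5149 and 3527 TPM in libraries labelled TET2KO, against 9466, 8192 and 9653 TPM in those labelled WT (−1.90 ± 0.35, edgeR adjusted p = 0.0065). Cox7a2 had 704, 1280 and 884 TPM in libraries labelled TET2KO, against 2039, 1859 and 1980 TPM in those labelled WT (−1.65 ± 0.31, edgeR adjusted p = 0.0065). The ratio of Cox7a1 over Cox7a2 was 3.58, 4.02 and 3.99 in libraries labelled TET2KO, against 4.64, 4.41 and 4.87 in those labelled WT, a difference of −0.26 on the log2 scale, again with no overlap.

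For subunit 6a the sign was the opposite. Cox6a2 had 3851, 4263 and 4472 TPM in libraries labelled TET2KO, against 4808, 4670 and 5142 TPM in those labelled WT (−0.85 ± 0.22, edgeR adjusted p = 0.012), a call lost without WT replicate 3 or TET2KO replicate 3. Cox6a1 had 314, 425 and 357 TPM in libraries labelled TET2KO, against 481, 496 and 514 TPM in those labelled WT (−1.07 ± 0.22, edgeR adjusted p = 0.0067). Cox6a2 over Cox6a1 was 12.3, 10.0 and 12.5 in libraries labelled TET2KO, against 9.99, 9.42 and 10.0 in those labelled WT, a difference of 0.24 on the log2 scale. The lowest TET2KO ratio and the highest WT ratio nearly touched. For each of the 3 pairs the two-sided exact permutation test over libraries gave p = 0.1, the smallest that 3 against 3 allows, and 0.1 after Benjamini-Hochberg adjustment over the 3 pairs, so none can pass. With the length and GC trend removed the differences in log2 ratio were −0.55 for subunit 8, −0.19 for 7a and 0.33 for 6a, still without overlap.

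**Figure D5:**
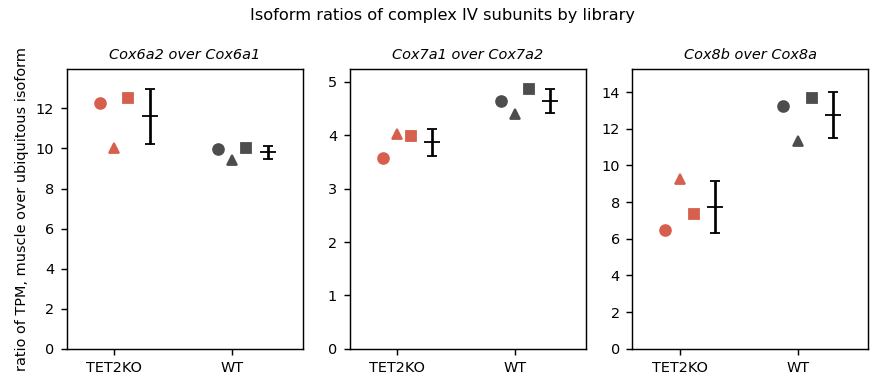
Ratio of the TPM of the muscle isoform to that of the ubiquitous isoform in each library (circle, triangle and square for replicates 1, 2 and 3), on axes that start at 0, with the mean and SD beside the points. TET2KO ratios lie above the WT ratios for subunit 6a, by a narrow margin, and below them for 7a and 8.

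A pair of further isoforms was described without a test. Cox4i2 over Cox4i1 was 0.00927, 0.00506 and 0.00841 in libraries labelled TET2KO, against 0.00344, 0.00403 and 0.00301 in those labelled WT. The rare isoform thus took a larger share of subunit 4 transcripts in every TET2KO library, while staying under 1% of Cox4i1. The TPM ratios of Cox6b2 over Cox6b1 overlapped narrowly between groups, with the lowest TET2KO ratio at 0.00105 and the highest WT ratio at 0.00107. With the length and GC trend removed, every TET2KO ratio of this pair lay above every WT ratio.

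The promoter windows of 250 bases before and 50 bases after the RefSeq start were searched on both strands for letters known to be read by regulators of respiratory genes, in the 34 subunit genes with a window. GCATGCGC, the core of the NRF1 site, was found in 7 of them (20.6%, against 3.05% of 27025 genes), among them Cycs, Uqcr11, Uqcrc1 and Cox6a1. CCGGAAG, read by GABP and other ETS factors, was found in 10 (29.4%, against 9.93% of all genes), among them Uqcrh, Atp5e and Cox8a. AAGATGGC, read by YY1, was found in 3 (8.82%, against 3.19%). TCAAGGTCA, read by the oestrogen-related receptors, was found in Atp5g3 only (2.94%, against 0.466%), and its inner letters AAGGTCA in 4 (11.8%, against 5.38%), counting Atp5g3 again. CAGCTG, an E-box read by myogenic factors, was found in Atp5b and Cox8b (5.88%, against 18.3%). In the printed stretches the capitals of Cox8b are this E-box and those of Cox8a are the upstream part of the GABP letters, read on the other strand and running over the start. Each of these has a further match after the start, which is not printed, and no searched letters occur in the windows of Cox7a1 and Cox7a2.

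The partners of these subunits encoded by the mitochondrial genome gave another picture. The 6 genes summed to 90236 ± 3499 CPM in libraries labelled TET2KO and 89693 ± 2890 CPM in those labelled WT (SD, n = 3 each). This near equality holds for TMM-scaled CPM: on the authors' TPM the sum was 154909 ± 12198 in libraries labelled TET2KO and 96057 ± 5277 in those labelled WT (SD, n = 3 each), with no overlap. mt-Co1, the catalytic subunit of complex IV, had 62570, 73727 and 70599 CPM in libraries labelled TET2KO, against 76227, 73711 and 79814 CPM in those labelled WT (−0.15 ± 0.22, edgeR adjusted p = 0.56). mt-Cytb, cytochrome b of complex III, rose, with 23626, 17868 and 22160 CPM in libraries labelled TET2KO, against 13115, 13190 and 12835 CPM in those labelled WT (0.70 ± 0.22, edgeR adjusted p = 0.025). Their transcripts are 1545 and 1144 nt long, and with the trend removed mt-Co1 also passed as higher (0.97 ± 0.16, edgeR adjusted p = 0.004). The remaining 4, mt-Co2, mt-Co3, mt-Atp6 and mt-Atp8, had mean levels of 1.86 to 43.8 CPM; nuclear copies of mitochondrial DNA are known, how reads shared with them were counted is not given, and these values are uncertain. Of the 4, mt-Co3 was called lower (−0.75 ± 0.17) and mt-Atp8 higher (0.73 ± 0.27, edgeR adjusted p = 0.042) as counted. With the trend removed mt-Co3 was not called (0.35, edgeR adjusted p = 0.054). The other 5 mitochondrial genes were then all called higher, where 21.9% of all tested genes were.

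As counted, genes that assemble the complexes mostly fell too, beside 29.4% of all tested genes called lower and 33.4% called higher. With the trend removed, 24.3% of all tested genes were called lower and 21.9% higher. Of 6 complex III assembly factors 5 fell and 0 rose, with Uqcc2 (−1.83 ± 0.33) and Uqcc3 (−1.07 ± 0.21) having the smallest p; with the trend removed 3 were lower. All 8 tested genes of a list of ATP synthase assembly, inhibitor and related genes outside the Atp5 names fell. Among them were Atpif1, the inhibitor that stops the enzyme from running backwards (−1.69 ± 0.28), and Minos1, a small organiser of the cristae (−1.61 ± 0.30). With the trend removed 7 of the 8 were lower. Complex IV assembly was mixed: of 23 tested factors 15 fell, such as Cox19 (−1.65 ± 0.27) and Coa3 (−1.75 ± 0.31), and 5 rose, namely Oxa1l, the insertase of the inner membrane (1.18 ± 0.23), Lrpprc, Cox10, Cox18 and Coa5. These 5 were named after their values were seen. With the trend removed 10 of the 23 were lower and 7 higher, and Surf1 and Cox20, lower as counted, were called higher (0.30 and 0.44). All 3 tested carriers for ADP, ATP and phosphate fell, Slc25a4 by −0.94 ± 0.26 on the log2 scale and Slc25a5 by −0.95 ± 0.24; with the trend removed Slc25a4 remained lower (−0.58), and Slc25a5 (0.02) and Slc25a3 (−0.02) were not called.

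The other complexes of the chain were mostly lower as well. Of 37 genes listed under nuclear complex I, 33 fell and 0 rose (median −1.42), where 29.4% of all tested genes were called lower. Ndufb3 (−1.51 ± 0.27) and Ndufa7 (−1.89 ± 0.35) had the smallest p. The list includes Ndufa4 (−1.84 ± 0.36, and −0.60 with the trend removed). It is named for complex I but placed in complex IV, and the symbol rule did not take it in. With the trend removed 20 of the 37 were lower and 2 higher, where 24.3% of all tested genes were lower and 21.9% higher. In complex II, 3 of 4 genes fell, among them the membrane anchor Sdhd (−1.52 ± 0.29), and Sdha, the flavoprotein that oxidises succinate, rose: it had 1034, 534 and 882 CPM in libraries labelled TET2KO, against 320, 309 and 298 CPM in those labelled WT (1.40 ± 0.27, edgeR adjusted p = 0.0065; 1.41 with the trend removed). Sdha is thus a respiratory gene with groups far apart in the direction opposite to the 37 called subunit genes.

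The regulators of respiratory gene transcription were mixed. Of 14 tested, 7 rose and 4 fell, where 33.4% of all tested genes were called higher and 29.4% lower, so the count that fell is near the background. Those with the smallest p were Esrrg, an oestrogen-related receptor (2.02 ± 0.33), and Polrmt, the mitochondrial RNA polymerase (2.13 ± 0.35). The median transcript length of the 14 was 4160 nt, against 746 nt for the subunit genes. With the trend removed 5 of the 14 were higher and 5 lower, where 21.9% of all tested genes were higher and 24.3% lower. Esrrg stayed higher (1.74), and Polrmt was not called (0.26).

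Marker genes of the cell types in heart were also called in both directions, and their part in these results was not tested. Their counts stand beside 33.4% of all tested genes called higher and 29.4% lower, and several are near those shares. With the length and GC trend removed, 21.9% of all tested genes were called higher and 24.3% lower. Of 12 cardiomyocyte markers 5 fell and 6 rose. Those that fell were Myl2, Myl3, Tnnc1, Tnni3 and Pln, with log2 fold changes of −1.64 to −0.74. They were named after their values were seen. Myh6, the alpha myosin heavy chain, had the largest rise, 3.45 as counted and 1.21 with the trend removed. It had 12157, 1742 and 8877 CPM in libraries labelled TET2KO, against 664, 633 and 787 CPM in those labelled WT. Endothelial markers summed to 505 to 852 CPM in libraries labelled TET2KO and 491 to 538 CPM in those labelled WT (5 of 8 higher, 3 lower). Fibroblast markers summed to 813 to 1005 CPM in libraries labelled TET2KO and 1054 to 1181 CPM in those labelled WT (3 of 7 higher, 3 lower). Smooth muscle and pericyte markers summed to 1130 to 1897 CPM in libraries labelled TET2KO and 2174 to 2323 CPM in those labelled WT (2 of 7 higher, 3 lower), and macrophage markers to 165 to 171 CPM in libraries labelled TET2KO and 183 to 201 CPM in those labelled WT (2 of 7 higher, 1 lower). All 5 erythroid genes fell, with sums of 165 to 741 CPM in libraries labelled TET2KO and 1554 to 7037 CPM in those labelled WT. With the length and GC trend removed the counts were 6 higher and 2 lower for cardiomyocyte markers, 4 and 1 for endothelial, 1 and 1 for fibroblast, 2 and 3 for smooth muscle and pericyte, 2 and 1 for macrophage, and 0 and 5 for erythroid. Adipocyte markers, at sums of 28.3 to 41.7 CPM in libraries labelled TET2KO and 37.7 to 42.9 CPM in those labelled WT, had 0 calls among 3 tested of 6. Fast skeletal muscle markers, with 2 of 3 tested genes lower of 8 listed, stayed at sums of 2.19 to 3.67 CPM in libraries labelled TET2KO and 4.95 to 8.06 CPM in those labelled WT.

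The authors' deposited table of their own comparison holds 42 of the subunit genes, of which 38 have an adjusted p under 0.05 and are lower, and 0 are higher. The authors' deposited table of significant genes, whose smallest absolute log2 fold change is 1.00, has 6254 genes. It includes 34 of the subunit genes, all lower. The share of all genes that passed in the comparison table is not given here, nor how the 6254 genes split by direction. Both tables rest on the same 6 libraries, so these counts are not separate support.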

How the data were processed

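Per the labels' protocols, libraries of poly(A)-selected RNA were read from both ends of each fragment. Per the submitters' processing notes, Trimmomatic 0.36 and STAR 2.5.2b were used with featureCounts (Subread 1.5.2), DESeq2 and mouse build GRCm38. The sources used here give neither the annotation release, the strand setting nor the treatment of reads with several matches. The authors deposited raw counts per Ensembl gene and TPM values. The TPM implies a merged exon length, which for Atp5l is 6443 nt against 544 nt for its longest transcript, so TPM levels compared between genes depend on it. Their deposited comparison table holds log2 fold changes, p-values and a normalised signal per library (counts divided by size factors), per the file headers. Every library column was matched to a sample, with 0 left over.

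Counts were tested with edgeR 4.0.16 in R 4.3.3 (quasi-likelihood F-test, robust, TMM factors 1.12 to 1.22 for TET2KO and 0.808 to 0.922 for WT, filterByExpr, group as the only term), with Benjamini-Hochberg adjustment over all 14370 genes at 0.05. SE was derived from the test by dividing the size of the log2 fold change by the root of F. CPM uses the TMM factors. The length and GC trend was fitted per library with mgcv 1.9.3 (basis size 6 per axis, log2 CPM with a prior count of 2) and entered as offsets; it removes biological differences linked to length or GC along with others, and took up 58% of the variance of log2 fold changes. Alternatives used DESeq2 1.42.0 and limma 3.58.1. The fits were also run on simulated counts. These used the dispersions and the trend estimated from these data, so they cannot show whether removing the trend is right here.

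The members, gene lists, motifs and tests were chosen with earlier results of these data known. Values in every library are given by rule for the isoform pairs, Cyc1, Cycs and, in each complex, the gene with the highest mean TPM and the 2 highest and 2 lowest fold changes; for each list, up to 2 genes past the test with the smallest p, not all printed. Positions and lengths follow GENCODE on GRCm38. Replicate pairs all differed beyond sampling noise (chi-square per degree of freedom at least 13.0), and mice are the replicates. Exons of 12 subunit genes overlap a gene on the other strand, which counting without strand could not tell apart: Atp5f1, Uqcrc2, Cox6a2, Atp5d, Cox4i1, Atp5l, Cox5a, Uqcrb, Cox6c, Atp5j, Atp5o and Atp5a1. On the same strand, Atp5o shares 243 exon bases with a second gene of that name and Atp5g2 shares 75 with Mir688. Strand could not separate these. Reads of processed pseudogenes could likewise be shared.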

Additional observations from a re-analysis of the deposited data

How the results depend on the processing

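With the exceptions given here, the 37 lower and 0 higher calls and the medians of the complexes kept their direction and size under another scaling factor (RLE), DESeq2, limma-voom, no low-count filter and each library left out (34 to 38 lower, 0 higher; medians −1.57 to −1.09 for complex III, −1.83 to −1.27 for complex IV and −1.70 to −1.16 for ATP synthase). Calls higher numbered 1 with total library size, 2 on log2(TPM + 1), 2 on log2(TPM + 0.1), 2 with the length and GC trend removed and 0 to 3 when a library was also left out; calls lower then numbered 13 to 28. In the order complex III, complex IV and ATP synthase, the medians were −0.90, −1.11 and −0.99 with total library size, −0.73, −0.95 and −0.83 with either pseudocount on TPM, −0.39, −0.37 and −0.41 with the length and GC trend removed, −0.50, −0.56 and −0.99 with a length trend from the counts and TPM, and −0.61, −0.49 and −0.92 with merged exon length, an alternative chosen after seeing the data. With the trend removed and a library left out they ran from −0.50 to −0.32, from −0.46 to −0.32 and from −0.52 to −0.34. Merged exon length gave 31 lower and 0 higher calls, with Uqcrc1 (−1.15) and Atp5b (−0.52) among the lower. Shares of all tested genes called under these alternatives are given only for the trend removed on transcript length and GC. Whether the other shifts in count are particular to the subunit genes was not tested. Numbered replicates share only a number: the deviations of same-numbered libraries correlated at 0.04, −0.23 and −0.01. The replicate block alone changed no call among the 42 genes; with the trend removed as well it left 15 lower and 0 higher (20.9% and 19.1% of all tested genes), with medians of −0.39, −0.37 and −0.42, and the isoform differences had a paired sign-flip p of 0.25, the smallest that 3 pairs allow.

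Among genes not called as counted, signs turned for Uqcrc1 on TPM (0.42 with either pseudocount, called higher) and, without a call, for Atp5b and Atp5d on log2(TPM + 1) (0.41 and 0.32), for Uqcrc1, Atp5b and Atp5d with total library size (0.21, 0.20 and 0.11) for Atp5d and Cox6b2 with a length trend from the counts and TPM (0.16 and 0.011), and for Atp5b (0.17), Cox6b2 (0.37) and Atp5a1 (−0.12) with the trend removed. Among called genes they turned, with the trend removed, for Cox6a1 (0.073), Cox8a (0.17), Cox5a (0.45), Cox6a2 (0.42) and Cox4i2 (0.46). With the replicate block added these 5 called genes were 0.073, 0.17, 0.44, 0.41 and 0.44. With each library left out they ran from −1.25 to −0.87, −1.16 to −0.81, −0.98 to −0.69, −0.95 to −0.69 and −0.72 to −0.52 as counted, and from 0.00011 to 0.072, 0.09 to 0.17, 0.36 to 0.53, 0.32 to 0.50 and 0.33 to 0.56 with the trend removed. With a length trend from the counts and TPM, Cox6a1 was 0.056, Cox8a 0.17, Cox6a2 0.31 and Cox4i2 0.43; with merged exon length Cox8a was 0.053, Cox6a2 0.40 and Cox4i2 0.40. The cause of these shifts was not tested. The isoform differences kept their sign in every alternative run. With 3 mice a group, the exact permutation p of a single ratio cannot fall below 0.1.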
